A study of Mus musculus with 6 samples.

Results

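The cytosolic ribosomal protein genes encode the protein part of the ribosomes that translate nuclear messages, and they were followed here in mouse intestinal crypts with and without Arid1a. Members were all genes whose symbol is Rpl or Rps followed by a number, with or without a closing a, x, y or l, together with Rpsa, Rplp0, Rplp1 and Rplp2. The rule used names only and no measured value. Of 83 such symbols in the mouse gene table, 82 had a probe on the array and 78 were measured, 46 of the large subunit and 32 of the small subunit, out of 13495 genes tested. A gene counted as measured when a probe was flagged as well above background by the scanner software on 3 or more of the 6 arrays, and its brightest such probe stood for it. All 78 measured members were above background on all 6 arrays, so the filter on dim signal did not choose among them by group.

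Crypts are the small glands between the villi, where the stem cells of the intestine divide. RNA of isolated crypts was measured on Agilent one-colour arrays, with 1 array for each sample. The 3 control samples were Arid1a f/f, meaning that both Arid1a alleles carry recombination sites but no Cre is present. The 3 knockout samples were Villin-Cre; Arid1a f/f, in which Cre recombinase is driven by the Villin promoter, active throughout the intestinal epithelium. The strain is given as mixed in all 6 samples. Age and the segment of the intestine are not in the labels used here. Whether each sample is a separate animal is not stated, so p-values reflect only how far these samples spread, which may be technical. Isolated crypts are a mixture of cells, and fewer cells of a type cannot be told apart from less RNA per cell.

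For 2 arrays the labels are at odds. Knockout 2 is a knockout by its title and description but an Arid1a f/f control by its source name and genotype, and control 3 is a control by the former and a knockout by the latter. The groups used here are those of title and description. Controls 1 and 2 and knockouts 1 and 2 shared slide 1, and control 3 and knockout 3 were on slide 2. Levels are log2 of the processed signal minus the 75th percentile of the same array, and a log2 fold change is the knockout mean minus the control mean of such levels. Arid1a itself was at 3.71, 3.47 and 4.01 in controls 1 to 3 and at 2.20, 2.07 and 2.51 in knockouts 1 to 3. It fell by 1.47 ± 0.21 (SE) on the log2 scale, with an adjusted p of 0.00733 in limma. Without both arrays of contradicting labels the fold change of Arid1a was -1.23 with an adjusted p of 0.0978, and grouped by source name it was -0.18 with an adjusted p of 0.999. Of the 12 intestinal epithelium markers, 12 were measured, with a summed level of 2455 to 3063 in controls and 2701 to 4116 in knockouts, in multiples of the array's 75th percentile. Of all genes tested, 2011 (14.9%) were called at an adjusted p under 0.05, 982 (7.28%) higher and 1029 (7.63%) lower in the knockout. Of the intestinal epithelium markers 0 were called higher and 1 lower, 10 were positive and 2 negative, and their median log2 fold change was 0.28.

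A ribosome holds a single copy of nearly every one of these proteins, and cells make them in matched amounts together with ribosomal RNA. Their messages are among the most abundant in dividing cells, and in the intestine the dividing cells sit in the crypt. Most of the messages begin with an unbroken stretch of pyrimidines, the 5′ terminal oligopyrimidine tract, through which the kinase mTOR and the RNA-binding protein Larp1 set their translation and stability together. Free ribosomal proteins, chiefly Rpl5 and Rpl11 with the 5S ribosomal RNA, bind Mdm2 and so activate p53 when ribosome assembly fails. A few members have paralogs made in 1 tissue or under stress, and Rps27l is the paralog of Rps27 that p53 induces.

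RefSeq (GRCm38.p6) promoter sequence was matched for 57 of the 78 members and searched for pyrimidine runs. From 50 bases before to 50 bases after a listed start, a run of at least 8 pyrimidines beginning with C, on the sense strand, was found in 49 of the 57 members (86.0%). Some members have several listed starts, and a run at any of them counted. The same search found a run in 32.1% of the 10784 tested genes that had a promoter sequence. The motif CCGGAAG, the core bound by ETS factors, stood on either strand within 300 bases in 23 members (40.4%), against 18.8% of the tested genes. Its reverse complement, CTTCCGG, starts with pyrimidines and can overlap a run. The 4 windows below run from 60 bases before to 30 bases after the listed start, 5′ to 3′ on the gene's own strand, with pyrimidine runs in capitals. Rps27 and Rps27l are shown as the paralog pair described below, one constitutive and one inducible, Rpl27a as a member with a long run among the 3 most negative fold changes, and Rps4x as a member with no run in the window and non-overlapping groups. A further listed start of Rps27l, not shown, had no such run.
Rps27, chr3:90213619-90213708, minus strand: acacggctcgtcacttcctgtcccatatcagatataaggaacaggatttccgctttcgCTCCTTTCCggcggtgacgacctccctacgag
Rps27l, chr9:66946026-66946115, plus strand: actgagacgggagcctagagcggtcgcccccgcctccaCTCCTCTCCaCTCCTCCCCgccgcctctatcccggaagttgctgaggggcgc
Rpl27a, chr7:109519135-109519224, plus strand: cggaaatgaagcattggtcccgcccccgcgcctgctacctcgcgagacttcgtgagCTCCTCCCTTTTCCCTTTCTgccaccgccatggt
Rps4x, chrX:102189362-102189451, minus strand: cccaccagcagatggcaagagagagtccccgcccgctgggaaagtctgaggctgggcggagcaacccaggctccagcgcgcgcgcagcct

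Listed starts can lie some bases from the true one, so a match here describes letters in a window and not a tract in use. The median log2 fold change was -0.08 over the 49 members with a run and -0.09 over the 8 without. It was -0.06 over the 23 members with CCGGAAG and -0.10 over the 34 without it. These small gaps between members with and without a motif were not tested.

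No measured member was called in either direction. In limma with Benjamini-Hochberg adjustment over all 13495 genes, 0 of 78 members passed an adjusted p of 0.05, where 14.9% of all genes did. At an unadjusted p under 0.05 there was 1 member (1.28%), Rps27l, against 34.2% of all genes. The smallest adjusted p was 0.110 for Rps27l among members with a higher knockout mean and 0.162 for Rps4x among those with a lower one. Log2 fold changes ran from -0.36 for Rpl8 to 0.59 for Rps27l, and 77 of the 78 lay within 0.4 of 0, 34 of them within 0.1. A p that misses the threshold does not show that levels were equal, but the intervals bound the size: the 95% interval of 77 members lay inside a log2 fold change of 1 in either direction, with a lowest bound of -0.95 for Rpl27a. The interval of Rps27l alone reached beyond 1, and it alone left out 0, starting at 0.07. The median half-width of an interval was 0.49. The SE of the members was close to that of other genes, with a median of 0.21 (range 0.15 to 0.31) against 0.22 over all genes. The fit had group as its only term, so SE and intervals include shifts between arrays that the members share (below). They do not give the precision of a single gene's measurement.

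**Figure D1:**
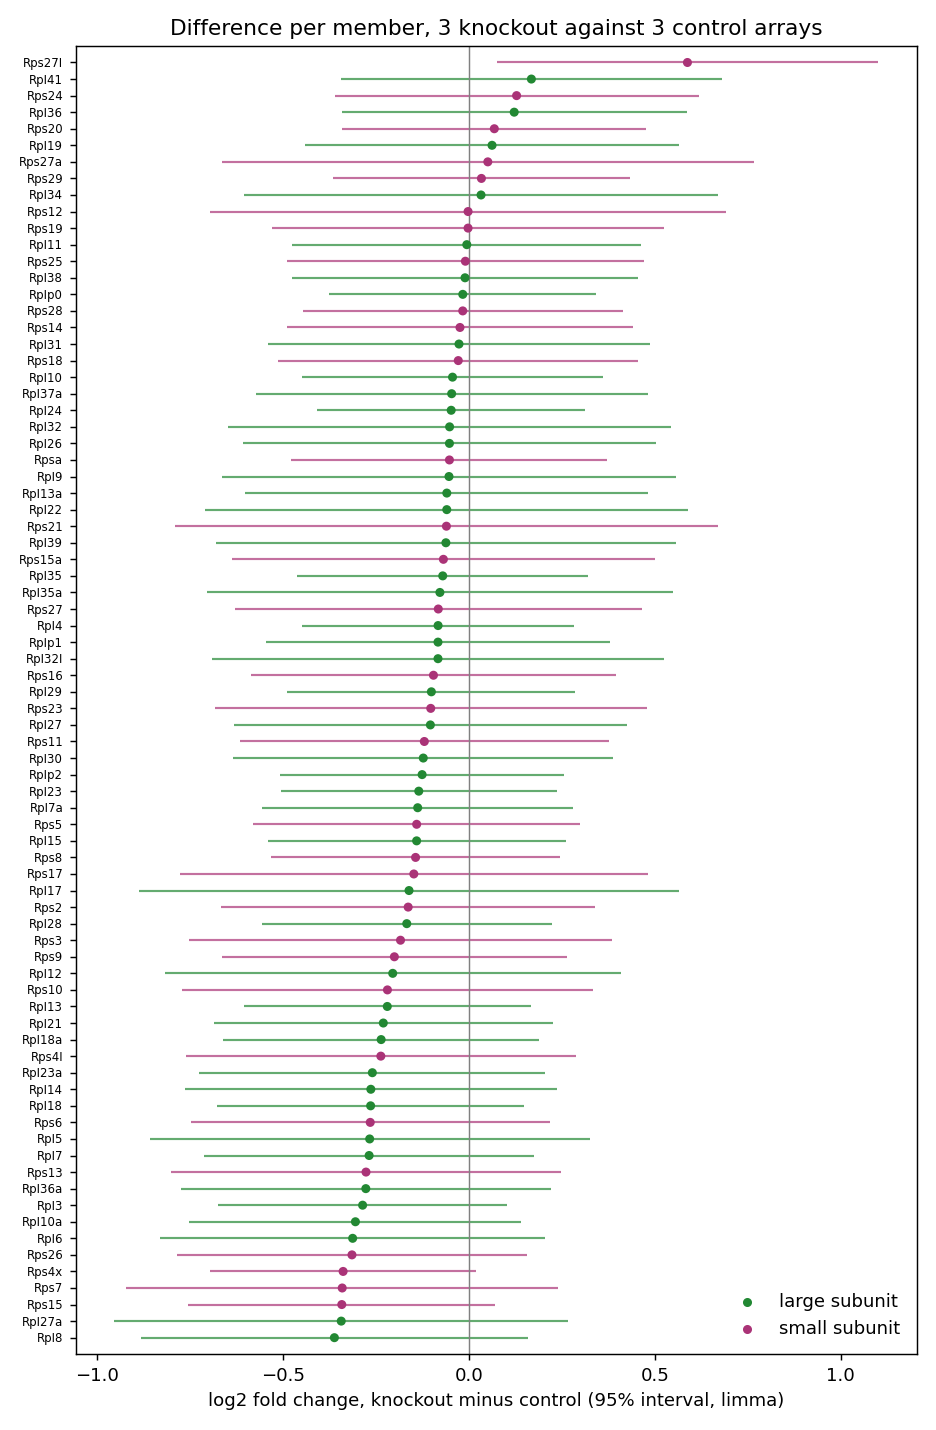
Log2 fold change, knockout minus control, of the 78 measured cytosolic ribosomal protein genes, ordered by value, with points for the fitted value and bars for the 95% interval of the limma fit. All intervals except that of Rps27l include 0, and 77 lie between -1 and 1.

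Small negative fold changes were common among the members, with 69 negative and 9 positive, and the median was -0.10 beside -0.01 for all genes, of which 50.9% were negative. The large subunit had 42 negative members of 46 and a median of -0.10, and the small subunit 27 of 32 and a median of -0.10. The sign of the median depended on single arrays. Without control 1 the median was 0.02 and 43 members were positive, without knockout 3 it was -0.01 with 36 positive, and without control 3 it was -0.28 with 1 positive. Leaving out control 2, knockout 1 or knockout 2 gave -0.08, -0.17 and -0.15. It was -0.33 without both arrays of contradicting labels and -0.30 with groups by source name. Scaling each array to its own median gave -0.35, where the median of all genes moved to -0.26. Both scalings shift all genes of an array alike, so the gap between members and all genes, -0.09, could not differ between them. Quantile normalization gave -0.21 with 75 members negative and a gap to all genes of -0.15. Normexp background correction gave -0.16 with 71 negative and a gap of -0.16. Scaling each array to the members' own median gave 0.04 with 32 negative.

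The members differed more among the controls than on average between the groups. The median level of the 78 members was 7.84, 7.61 and 7.34 in controls 1 to 3 and 7.61, 7.52 and 7.24 in knockouts 1 to 3. Taken per gene against its control mean, the median deviation was 0.25, 0.05 and -0.31 in the controls and -0.02, -0.01 and -0.31 in the knockouts. Control 1 was the highest of the 6 arrays in 69 members, and control 3 or knockout 3, the arrays of slide 2, was the lowest in 76. Within the controls, control 3 was the lowest in 73 members, and within the knockouts, knockout 3 was the lowest in 73. Control 3 lay below the mean of controls 1 and 2 in 76 members, with a median difference of -0.46, while over all genes that median was 0.05. Knockout 3 lay below the mean of knockouts 1 and 2 in 75 members, with a median of -0.30, against -0.01 over all genes. Slide 2 also had its own scan, so slide and scan cannot be told apart. The share of probes well above background was 41.7%, 46.0% and 49.4% in controls 1 to 3 and 46.6%, 44.8% and 54.7% in knockouts 1 to 3. It was lowest on control 1, where the member median was highest, and highest on knockout 3, where that median was lowest. The part of slide, scan and this share in these levels was not tested.

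Compared within a slide, the difference between knockout and control was small on both. On slide 1 the median over members of knockout minus control was -0.17, with 5 members positive. On slide 2, where a single pair of arrays stood, it was -0.01, with 38 members positive. The members moved together from array to array: the median SD of a member among the controls was 0.29, against 0.20 over all genes, and dropped to 0.10 once each array was centred on the members' median. Among the knockouts it was 0.18, against 0.30 over all genes, and 0.09 after centring. The summed level of the 78 members ran from 13910 to 19913 in controls and from 13980 to 16961 in knockouts, in multiples of the array's 75th percentile, and the groups overlapped.

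**Figure D2:**
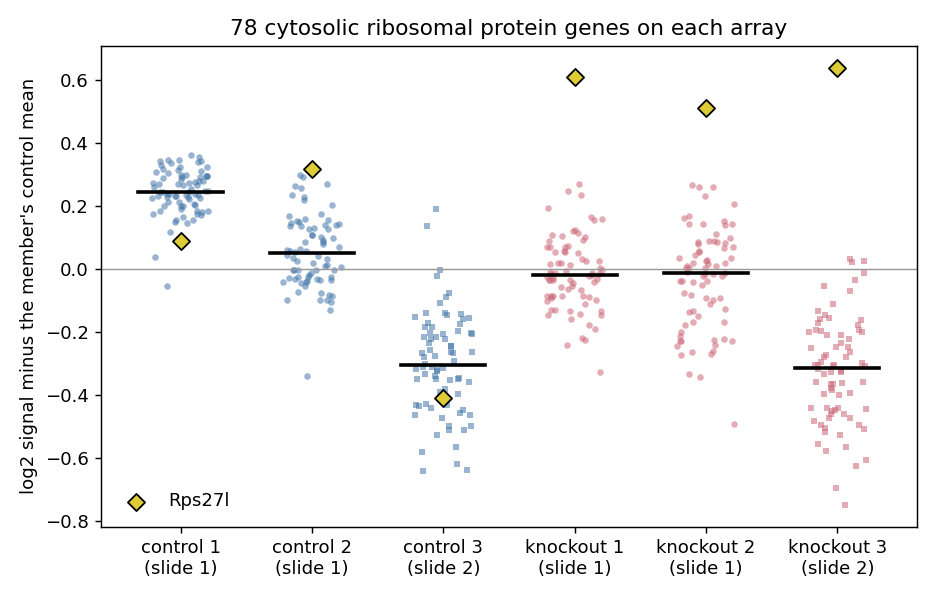
Log2 level of each of the 78 members on each array minus that gene's control mean, 1 point per gene, with the median of the members as a bar and Rps27l as a diamond. The median is 0.25 in control 1, 0.05 in control 2 and -0.31 in control 3, and -0.02, -0.01 and -0.31 in the knockouts, while Rps27l stands above the median in all knockouts.

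Rps27l was the member with the largest fold change. Its protein replaces Rps27 in a part of the ribosomes and also binds Mdm2. Its level was 6.43, 6.66 and 5.93 in controls 1 to 3 and 6.95, 6.85 and 6.98 in knockouts 1 to 3. All knockout arrays lay above all control arrays, and the knockouts were close together while control 3 was low. The log2 fold change was 0.59 ± 0.22 (SE), with an adjusted p of 0.110 in limma, so it was not called. The adjusted p ran from 0.0466 with array weights, where the fold change was 0.46, to 0.999 with groups by source name, where it was -0.03. Leaving out single arrays kept the fold change between 0.38 and 0.75, with adjusted p from 0.109 to 0.230.

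A second probe for Rps27l gave the same picture, with 5.41, 5.49 and 4.82 in controls 1 to 3 and 5.92, 5.80 and 5.99 in knockouts 1 to 3. Its log2 fold change was 0.66, with an adjusted p of 0.0837 in a limma fit over probes, and its groups did not overlap. The difference between knockout and control of the first probe was 0.36 on slide 1 and 1.05 on slide 2. Set against the members' median on the same array, Rps27l was at -1.41, -0.95 and -1.41 in controls and -0.66, -0.67 and -0.26 in knockouts. The groups were apart on that scale as well, and with arrays scaled to the members' median the log2 fold change was 0.73 with an adjusted p of 0.115 in limma.

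Rps27 itself, an essential protein of the small subunit that carries a zinc finger, was at 8.15, 8.0 and 7.43 in controls 1 to 3 and 7.83, 7.92 and 7.58 in knockouts 1 to 3. The groups overlapped and the low arrays were those of slide 2, as for most members. Its log2 fold change was -0.08 ± 0.23 (SE), with an adjusted p of 0.821 in limma. Whether the fold changes of Rps27l and Rps27 differ was not tested.

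**Figure D3:**
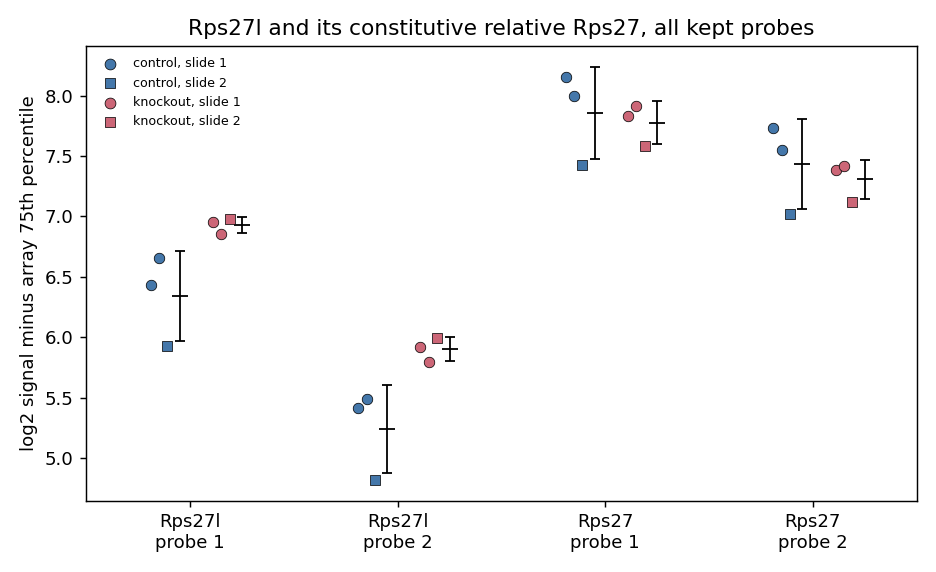
Level of Rps27l and of Rps27 on each array, as log2 signal minus the array's 75th percentile, for both kept probes of each gene, with a point per array (circles for slide 1, squares for slide 2) and a bar for each group's mean and SD (n = 3). The 3 knockout arrays of the brighter Rps27l probe, from 6.85 to 6.98, lie above its 3 control arrays, from 5.93 to 6.66, while the groups of Rps27 overlap.

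The groups did not overlap in 3 of the 78 members (3.85%), against 39.7% of all genes. Of these 1 was higher in the knockout, Rps27l, against 19% of all genes, and 2 were lower, Rps15 and Rps4x, against 20.7%. Rps15, a protein of the head of the small subunit, was at 7.26, 6.94 and 6.84 in controls and 6.79, 6.67 and 6.55 in knockouts. Its log2 fold change was -0.34 ± 0.17 (SE), with an adjusted p of 0.208 in limma. Rps4x, an X-linked protein of the small subunit, was at 7.03, 6.81 and 6.89 in controls and 6.59, 6.67 and 6.46 in knockouts. It had a log2 fold change of -0.34 ± 0.15 (SE) and an adjusted p of 0.162. It differed from most members in that control 3 was not its lowest control.

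With array weights, which let the fit count arrays unequally, 4 members were called and 52.6% of all genes were. Rps27l was called higher. Rpl3, which lies at the peptidyl transferase centre, had a log2 fold change of -0.36 and an adjusted p of 0.0339 in that fit. Rps13 was at -0.52 (adjusted p 0.0265) and Rps15 at -0.38 (adjusted p 0.0415). In the same fit 25.9% of all genes were called higher and 26.7% lower, so the share of members called, 1 higher and 3 lower of 78, stayed under the background. In the unweighted fit Rpl3 and Rps13 were at -0.29 and -0.28, with adjusted p of 0.253 and 0.401 in limma, and their groups overlapped.

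The most negative fold change belonged to Rpl8, a large-subunit protein near the peptidyl transferase centre. Its level was 8.01, 7.62 and 7.54 in controls 1 to 3 and 7.60, 7.47 and 7.03 in knockouts 1 to 3. Knockout 1 lay above control 3, so the groups overlapped, and the log2 fold change of -0.36 ± 0.22 (SE) had an adjusted p of 0.278 in limma. Rpl27a was at 7.59, 7.27 and 6.95 in controls and 7.25, 7.01 and 6.52 in knockouts. The array of slide 2 was the lowest in both groups, and the fold change was -0.34 with an adjusted p of 0.373.

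At the positive end, after Rps27l, stood Rpl41, the smallest ribosomal protein, at 8.91, 8.79 and 8.27 in controls and 8.91, 8.93 and 8.65 in knockouts. Its log2 fold change was 0.17 ± 0.21 (SE), with an adjusted p of 0.608 in limma, and the groups overlapped. It changed sign without control 3, to -0.03. Rps24 came next, at 8.58, 8.61 and 8.03 in controls and 8.50, 8.67 and 8.44 in knockouts, with a fold change of 0.13 and an adjusted p of 0.685. In both genes control 3 was the low array of the 6.

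The proteins of the stalk, which recruits elongation factors to the ribosome, were at a log2 fold change of -0.02 for Rplp0, -0.08 for Rplp1 and -0.13 for Rplp2. Rplp0, the base of the stalk, was at 8.23, 8.06 and 7.93 in controls and 8.05, 8.03 and 8.10 in knockouts, with a knockout SD of 0.04 (n = 3). Of the 5S particle, Rpl5 was at 6.51, 6.27 and 5.75 in controls and 6.09, 6.03 and 5.61 in knockouts. Its log2 fold change was -0.27 ± 0.25 (SE), with an adjusted p of 0.472 in limma. Rpl11, its partner on the 5S RNA, was at 8.39, 8.30 and 7.88 in controls and 8.30, 8.28 and 7.98 in knockouts, with a fold change of -0.01 and an adjusted p of 0.986. Both genes had overlapping groups and their lowest levels on slide 2.

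The members mutated in Diamond-Blackfan anaemia, an inherited failure of red cell production, were all measured. Of 20, 0 were called in limma, where 14.9% of all genes were, and 0 at an unadjusted p under 0.05, where 34.2% were. There were 17 negative and 3 positive (50.9% of all genes were negative), and the median log2 fold change was -0.07. Rps19, the member most often mutated in that disease, was at 8.49, 8.35 and 7.82 in controls and 8.27, 8.36 and 8.02 in knockouts (fold change -0.00 ± 0.22, SE), so the groups overlapped almost fully. The 4 of the list with the smallest p, Rps26, Rpl18, Rps7 and Rpl5, were at -0.31, -0.26, -0.34 and -0.27, and none passed (adjusted p from 0.294 to 0.472 in limma). Rps6, whose phosphorylation by S6 kinase is the common readout of mTOR activity, was at 7.59, 7.32 and 7.05 in controls and 7.23, 7.12 and 6.81 in knockouts, with a fold change of -0.27 and an adjusted p of 0.382.

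Of the other paralogs, Rpl22l1, related to Rpl22, was at 6.19, 6.19 and 5.42 in controls and 6.0, 6.26 and 6.01 in knockouts, with a log2 fold change of 0.16 that turned to -0.10 without control 3. Rpl7l1 had a fold change of 0.18, Rpl36al of 0.02 and Rps4l, a paralog of Rps4x, of -0.24 with a 95% interval from -0.76 to 0.29. The 1 kept probe of Rps4l is named for a non-coding transcript, though by its symbol Rps4l counts among the 32 small-subunit members. The difference of Rps4l was 0.00 on slide 1 and -0.72 on slide 2, and that of Rpl36al turned negative without control 3 or knockout 1. None of the 4 was called (adjusted p from 0.445 to 0.943 in limma), and their groups overlapped. The paralogs made mainly in muscle or testis were dim. Rpl3l, known from heart and skeletal muscle, was well above background on 0 arrays, and Rpl10l and Rpl39l, known from testis, on 1 array each, knockout 3. These 3 and Rpl37 were the members on the array that were not measured, and Rpl6l had no probe.

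The probe named for Rpl37 was well above background only on controls 1 and 3. It was at -0.07, -3.65 and -3.64 in controls and -4.88, -5.57 and -4.45 in knockouts, so that control 1 stood far above the other arrays. The probe of Rpl37rt, a near-identical retrocopy, was at 8.75, 8.59 and 8.28 in controls and 8.53, 8.47 and 8.23 in knockouts, the order of arrays seen in the other members. A probe can bind the transcripts of both copies. Ribosomal protein genes have many such processed copies in the genome, so a level given here can include their transcripts.

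Some ribosomal proteins have symbols outside the naming rule. Of these, Rps3a1 had a log2 fold change of -0.11, Rack1, a scaffold on the small subunit, of -0.07, and Fau, whose product is cut to release a small-subunit protein, of 0.13. None of the 3 was called, with adjusted p from 0.607 to 0.823 in limma.

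The probes of a gene gave nearly the same answer in most members. There were 139 kept probes for the 78 members, with several in 45 of them, and the median range between the fold changes of a gene's probes was 0.07. No single probe was called in a limma fit over probes. Fold changes of both signs occurred in 4 members, Rpl7a, Rps20, Rps24 and Rps29, and the range was above 0.5 in Rps24 alone, at 1.02, with 0.23 the next largest.

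The 3 probes of Rps24 are named for 3 different transcripts, which are known to differ in their last exons. The dim one was at 2.81, 2.90 and 1.79 in controls 1 to 3 and 1.85, 1.53 and 1.46 in knockouts 1 to 3. Controls 1 and 2 stood above the other arrays, and control 3 lay among the knockouts. Its log2 fold change was -0.89 with an adjusted p of 0.104 in limma, so it was not called. The other probes were at 5.84, 5.93 and 5.62 in controls and 5.82, 5.93 and 6.04 in knockouts, and at the values given above for the brightest. Their fold changes were 0.14 and 0.13.

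**Figure D4:**
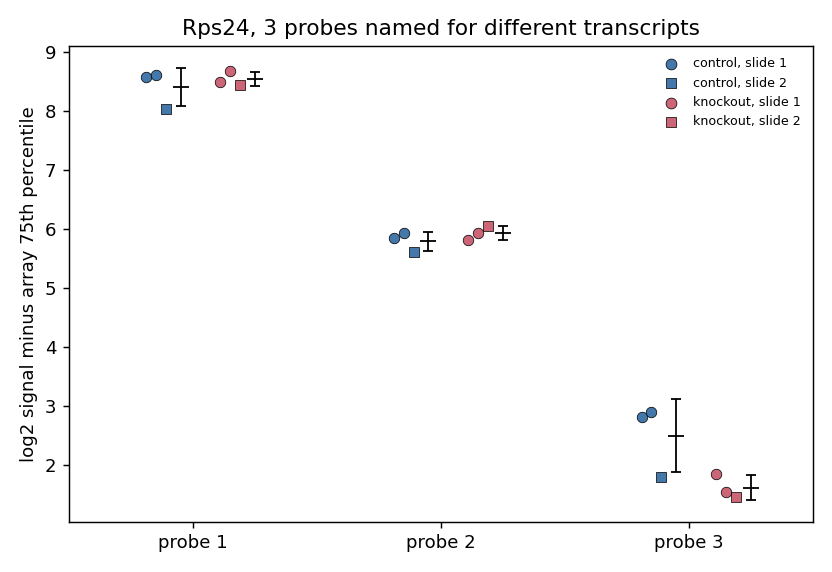
Levels of the 3 Rps24 probes on each array, as log2 signal minus the array's 75th percentile, with a point per array (circles for slide 1, squares for slide 2) and a bar for each group's mean and SD (n = 3). The dim probe lies at 2.81 and 2.90 in controls 1 and 2 and between 1.46 and 1.85 on the other arrays, while the other probes lie between 5.62 and 6.04 and between 8.03 and 8.67.

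Ribosome biogenesis factors process ribosomal RNA and assemble it with these proteins, and 78 of 79 listed were measured. Of these, 1 was called higher and 0 lower, against 7.28% and 7.63% of all genes. 71 were negative, against 50.9% of all genes, and the median log2 fold change was -0.41. At an unadjusted p under 0.05, 14 (of 78) were lower and 1 higher, against 18% and 16.2% of all genes. The median deviation from the control mean was 0.15, -0.07 and -0.08 in controls and 0.11, -0.50 and -0.82 in knockouts, so that knockout 1 lay with the controls, while knockout 3 was the lowest array, as it was for the members together with control 3. On slide 1 the median difference was -0.22 and on slide 2 it was -0.73. Tsr1, Imp3 and Surf6, assembly factors of the list with the smallest p after Sbds (below), were at -0.92, -0.92 and -0.75, with adjusted p of 0.111, 0.115 and 0.117 in limma.

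The count of called biogenesis factors rested on knockout 1. Without it 39 of the 78 were called lower and 2 higher in limma, against 17.2% and 12.7% of all genes, and the median was -0.72. Tsr1, Imp3 and Surf6 were then called lower, with adjusted p of 0.0114, 0.0234 and 0.0309. Without any other single array 0 were called in either direction, with medians from -0.46 to -0.21. In those fits 2.61% to 4.91% of all genes were called higher and 2.12% to 5.84% lower. In the fit without knockout 1, 0 of the 78 ribosomal protein genes were called, and their median was -0.17. These counts for the lists with single arrays left out were added after the data were seen.

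The 1 called factor was Sbds, which frees new large subunits for translation and is mutated in Shwachman-Diamond syndrome. It was at 4.07, 4.0 and 4.27 in controls and 4.71, 5.16 and 5.17 in knockouts. All knockouts lay above all controls, and it rose by 0.90 ± 0.19 (SE) on the log2 scale, with an adjusted p of 0.0259 in limma. With single arrays left out, the call of Sbds held only without knockout 1. Without any one of the other 5 arrays it was lost, with an adjusted p from 0.0626 without control 3 or knockout 3 to 0.104 without control 1. The 16 genes of RNA polymerase I, which makes the ribosomal RNA, had 0 called in limma (14.9% of all genes), 1 of them lower at an unadjusted p under 0.05 (18% of all genes), and a median of -0.12. That gene was Polr1b, the second largest subunit, at -1.15 with an adjusted p of 0.0869. Without knockout 1, 6 of the 16 were called lower, Polr1b among them at -1.60 with an adjusted p of 0.00371, against 17.2% of all genes.

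Called genes were also counted among the factors that work on the ribosome. Of 36 initiation factors 1 was called higher and 0 lower, against 7.28% and 7.63% of all genes. Of the 36, 25 were negative, against 50.9% of all genes, and the median was -0.19. Without knockout 1 the count called was 2 higher and 5 lower, against 12.7% and 17.2%. Eif4g3, a scaffold of the cap-binding complex, was at 2.05, 1.88 and 2.21 in controls and 2.68, 2.70 and 2.69 in knockouts, and rose by 0.65 (adjusted p 0.0369 in limma). Its call held without knockout 1 (0.0353) and was lost without any other array, with adjusted p up to 0.135 without control 1. Of 12 elongation and termination factors 1 was called lower, where 7.63% of all genes were. Of the 12, 9 were negative, against 50.9% of all genes, and the median was -0.14. Eef2k, the kinase that inactivates elongation factor 2, was at 0.61, 0.48 and 0.93 in controls and -0.25, -0.43 and -0.69 in knockouts, a fall of 1.13 on the log2 scale (adjusted p 0.0153). The adjusted p of Eef2k was 0.0609 without control 1 and 0.0541 without control 3, and under 0.05 without any other array. Without knockout 1, 2 of the 12 were called lower, against 17.2% of all genes.

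Of 22 genes of Myc and mTOR control, 1 was called higher and 3 lower, against 7.28% and 7.63% of all genes, with a median of -0.09. Mycn, a Myc family factor that drives ribosome genes, fell by 2.29 on the log2 scale (adjusted p 0.0105 in limma), from 0.46, -0.77 and -0.30 in controls to -2.05, -2.59 and -2.84 in knockouts. Mycl, of the same family, fell by 2.09 (adjusted p 0.0232), and Deptor, an inhibitor of mTOR, fell by 1.34 (adjusted p 0.0120). Mxi1, a repressor that competes with Myc for Max, rose by 1.32 (adjusted p 0.0431). The call of Mycn held without any single array, with adjusted p up to 0.0425. That of Deptor was lost without control 1 (0.0524). That of Mycl held only without knockout 1 and knockout 3, and that of Mxi1 only without control 3 and knockout 1, with adjusted p up to 0.0879 and 0.145 otherwise, both without control 1. In the whole list the counts without single arrays ran from 0 to 3 higher and from 1 (without control 1) to 5 (without knockout 1) lower. In these fits the share of all genes called ran from 2.61% to 12.7% higher and from 2.12% to 17.2% lower.

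**Figure D5:**
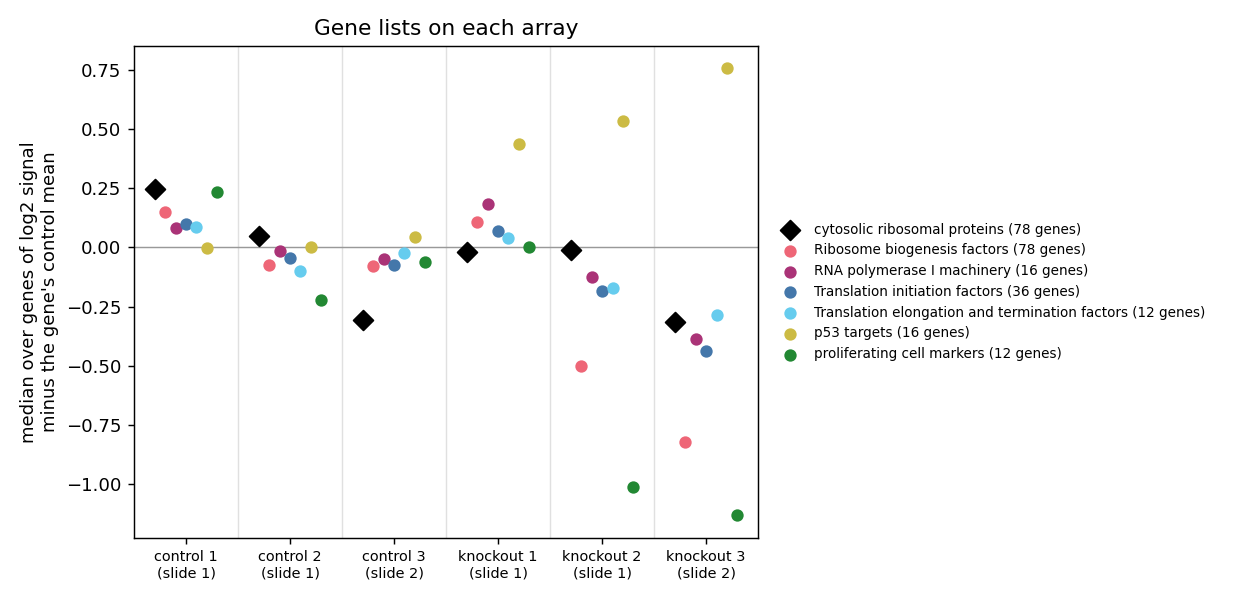
For each array, the median over the genes of a list of the log2 level minus the gene's control mean, with 1 colour per list and no order among replicates. The ribosomal proteins (diamonds) are lowest on control 3 and knockout 3, both at -0.31, the biogenesis factors are lowest on knockouts 2 and 3, at -0.50 and -0.82, and the p53 targets stand at 0.44 to 0.76 in the knockouts.

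Rps27l is known as a target of p53, although it was not counted among the listed targets here. Whether p53 had a part in the level of Rps27l in these crypts was not tested. Of 18 listed targets 16 were measured, with 7 called higher (of 16, against 7.28% of all genes) and 0 lower (7.63%). The median log2 fold change was 0.61, with 13 positive and 3 negative (50.9% of all genes were negative), the lowest at -0.64. With single arrays left out the count higher was 1, 2 and 2 without controls 1, 2 and 3 (2.61%, 3.24% and 3.42% of all genes), 9 without knockout 1 (12.7%), and 3 each without knockouts 2 and 3 (3.42% and 4.91%). Gdf15, a secreted stress factor, was at -1.40, -2.34 and -2.15 in controls and 1.76, 0.66 and 0.75 in knockouts, and rose by 3.02 (adjusted p 0.00522 in limma). Phlda3, an inhibitor of Akt, rose by 3.27 (adjusted p 0.0135), Pmaip1, which encodes the cell death protein Noxa, by 1.33 (adjusted p 0.0254), and the death receptor Fas by 1.13 (adjusted p 0.0198). The call of Gdf15 held without any single array. That of Phlda3 was lost without control 1 (0.0535), that of Fas held only without knockout 1 and knockout 3, and that of Pmaip1 only without knockout 1, with adjusted p up to 0.0785 and 0.0985.

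Lists of cell markers differed between the groups beside these values, and not all in the same direction. The 12 markers of proliferating cells had 0 called in limma (14.9% of all genes) and 6 lower at an unadjusted p under 0.05 (18% of all genes). All 12 were negative (50.9% of all genes), with a median of -0.71 and a summed level of 184 to 250 in controls and 98.4 to 207 in knockouts. Their median deviation was 0.23, -0.22 and -0.06 in controls and 0.00, -1.01 and -1.13 in knockouts, with knockouts 2 and 3 lowest as for the biogenesis factors. Without knockout 1, 9 of the 12 were called lower (17.2% of all genes). Of 10 crypt base stem cell markers 9 were measured and 4 were called lower, where 7.63% of all genes were, with a summed level of 73.3 to 98.8 in controls and 9.91 to 42.6 in knockouts. Of 10 Paneth cell markers 7 were measured and 5 were called lower (7.63% of all genes). Their summed level was 1774 to 1930 in controls and 213 to 1075 in knockouts. Of these 7, Wnt3 was above background on none of the knockout arrays. Of 10 goblet cell markers 5 were called lower, and of 7 measured tuft cell markers 2 were, where 7.63% of all genes were. The summed level of the goblet cell markers was 1791 to 1884 in controls and 841 to 1252 in knockouts. That of the tuft cell markers was 19.3 to 23.9 in controls and 10.7 to 13.9 in knockouts.

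Leaving out single arrays moved these counts. From 1 to 8 stem cell, 0 to 5 Paneth cell, 2 to 5 goblet cell and 1 to 4 tuft cell markers were then called lower. The share of all genes called lower moved as well. It was 2.12%, 2.61% and 2.69% without controls 1 to 3, and 17.2%, 3.46% and 5.84% without knockouts 1 to 3. The stem cell count was 1 without control 1 or control 3, 2 without control 2 or knockout 2 and 8 without knockout 1, and the Paneth count was 0 without control 1 or control 2, 1 without control 3 or knockout 2, and 5 otherwise. The goblet count was 2 without any one control or knockout 2, and the tuft count was 4 without knockout 3, 2 without knockout 1 and 1 otherwise. Of the 9 measured markers of exocrine pancreas 2 were called lower (7.63% of all genes), and the median was -1.55. Their summed level was 30.5 to 55.4 in controls and 10.9 to 19.5 in knockouts. Their median deviation was -1.60, 0.85 and 0.52 in controls and 0.21, -2.13 and -2.96 in knockouts, with knockouts 2 and 3 lowest. The exocrine pancreas count was 0 without control 1 or control 2, 3 without knockout 1, and 1 without knockout 2 or knockout 3. Some other marker lists had positive medians. T cell and intraepithelial lymphocyte markers were at 0.70 (11 measured, 1 called higher). Their summed level overlapped, at 68.3 to 162 in controls and 65.5 to 146 in knockouts. Macrophage and dendritic cell markers were at 0.28 (6 measured, 1 called higher and 1 lower), and enterocyte markers at 0.07 (12 measured, 2 called lower). The enterocyte markers ran from -5.10 to 0.75, with 7 positive and 5 negative. Their median turned to -0.003 without control 1 and to -0.19 without knockout 3. Fibroblast and smooth muscle markers were at 0.76 (2 measured, 1 called higher) and endothelial markers at 0.53 (3 measured, 0 called). Enteroendocrine markers were at -0.19 (10 measured, 1 called higher and 1 lower). Of all genes 7.28% were called higher and 7.63% lower. The part of these shifts in the levels of the ribosomal proteins and of the biogenesis factors was not tested. Of 12 housekeeping genes 0 were called in limma (14.9% of all genes), 3 were higher at an unadjusted p under 0.05 (16.2% of all genes), and their median was 0.27.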

How the data were processed

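Cy3-labelled RNA of isolated crypts, 3 control and 3 knockout samples, was hybridised to 1 Agilent array per sample, per the labels. Spot intensity came from Agilent Feature Extraction (the file headers give version 12.0.3.1, whereas the submitters' processing notes give 11.5.1.1). The deposited processed intensity had the background of its own array subtracted, per the file headers. A series table deposited by the authors gives log2 values, which followed the scanner values after centring on each probe's median over arrays. The median of its columns was 0.196, 0.0606 and -0.322 (controls) and -0.0717, 0.214 and -0.183 (knockouts), and it served as an alternative.

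Control spots and spots flagged as outliers were dropped, and the rest averaged per probe. Levels are log2 processed signal minus the array's 75th percentile, which was a signal of 295, 279 and 290 (controls) and 292, 206 and 205 (knockouts). Of 56605 probes, 41.7% to 54.7% per array passed the well-above-background flag, and 0 spots were saturated. Precision is limited by how many arrays there are. Names came from a RefSeq gene table (GRCm38.p6), through the accession of 33767 probes. Group was the single term of the fit, made with limma 3.58.1 in R 4.3.3, with eBayes and a two-sided Benjamini-Hochberg adjusted p under 0.05 over 13495 genes, tested on simulated data. Single probes were fitted separately in the same way.

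The members, the gene lists and the alternatives were chosen with earlier results of these data known. Named were Arid1a, the 3 largest fold changes in each direction, members called under an alternative, all measured stalk, 5S and paralog genes, the outside-pattern genes (1 gene under this rule is not reported here), and up to 4 genes of smallest p per other list. Rps27, Rps19, Rps6, Rps15, Rps4x, Rps13, Rpl3, Rpl37 and the Rps24 probes were named for their role or after their values were seen. Levels of different probes were not ranked. Slide and scan split the arrays alike. Of the alternatives, normexp used an offset of 50.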

Additional observations from a re-analysis of the deposited data

How the results depend on the processing

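In limma, 0 members were called in either direction under every alternative tried except array weights, where 1 was called higher and 3 lower. The member median moved by less than the spread between arrays of a group (SD 0.28) in every alternative. Its range without single arrays was -0.28 to 0.02. The count of all genes called, 2011, was 3445 at an adjusted p under 0.1, 513 at 0.01, 689 on slide 1 alone, 1157 with arrays scaled to the members, 697 with no filter on dim probes, 7095 with array weights, 320 without both arrays of contradicting labels, and 638 (without control 1) to 4033 (without knockout 1) with single arrays left out. With groups by source name it was 0 in limma, with 207 genes at an unadjusted p under 0.05. Of the called genes 48.8% were higher, or 28.8% with arrays scaled to their own median.

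The replicate numbers were not taken to pair the samples: deviations of same-numbered samples correlated at 0.246, 0.0797 and 0.352 across genes, although each array correlated best with its own number. With the replicate number as a block 2733 genes and 0 members were called, and the member median stayed at -0.10. With the slide as a block 2503 genes and 0 members were called. The groups of 3 arrays limit what can be seen: the median interval of a member spans 0.49 on either side of its fold change. That interval comes from the fit without slide and includes the shared shifts between arrays. Causes of these differences between settings were not tested.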
